A study of Mus musculus with 4 samples.

Results

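Delta cells are the somatostatin cells of the pancreatic islet. In 4 single-cell libraries of mouse islets they were taken as barcodes with at least 500 genes, a mitochondrial (mt-) share under 20%, Sst at 5% of UMIs or more, Gcg under 10% of UMIs and fewer Ppy than Sst counts. A UMI (unique molecular identifier) is a short random tag that counts 1 captured RNA molecule. 490 of 6995 barcodes that passed the gene and mt- limits met the rule. The barcodes were thus selected on measured Sst, Gcg and Ppy. Since the rule reads Sst, Gcg, Ppy and the mt- genes, their values are given as a description with no test. Each library held islets pooled from several 2-month-old mice, given once as 2 males and 2 females and once as 3 to 4 mice. There were 2 libraries of mutants (Atf4F/F; Ins1Cre) and 2 of controls (Atf4F/F). Every mouse therefore carried floxed Atf4, and Cre was present in the mutants only, so that loss of Atf4 and presence of Cre cannot be told apart. Ins1Cre drives Cre from the insulin 1 gene, whose expression marks beta cells and not delta cells. Cells with and without tdT were run together, and human K562 cells, a leukaemia line, were added at 10% to measure doublets. The labels do not say whether the pools were prepared on separate days, so p-values measure the spread between these pools. Levels are given as CPM, the UMIs of a gene per 1000000 UMIs in the sum of a class in a library.

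Somatostatin is a small peptide that delta cells release in response to glucose, to nutrients and to signals from their neighbours. It acts on receptors of beta and alpha cells and holds back the release of insulin and glucagon. Delta cells reach other islet cells through long processes, and their identity depends on the transcription factor Hhex. Transcription of Sst in many tissues is raised by cyclic AMP through the factor CREB, which binds the palindrome TGACGTCA. The 250 bases before the RefSeq start of Sst (GRCm38.p6, chr16:23890845-23891094, minus strand) are shown because Sst defines these cells, with that palindrome in capitals.
Sst: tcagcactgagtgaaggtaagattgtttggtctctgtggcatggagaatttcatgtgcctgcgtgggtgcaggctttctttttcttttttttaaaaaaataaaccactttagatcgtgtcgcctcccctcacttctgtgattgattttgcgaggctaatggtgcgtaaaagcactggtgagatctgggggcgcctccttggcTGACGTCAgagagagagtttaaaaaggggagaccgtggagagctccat
The palindrome reads the same on both strands and began 48 bases before the start. It occurred in the windows of 478 of 27025 genes of the table (1.77%). Among the 26 genes made up of Sst and the 25 genes named below as highest in delta cells, 21 had a window, and 2 of these held it, Sst and Kctd8.

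Depth was similar across libraries. The matrices held 2352 to 3272 barcodes and 13706563 to 17655893 UMIs per library, and the kept barcodes had medians of 5186 to 5787 UMIs. Of 6831 kept barcode sequences, 162 occurred in more than 1 library. 22 delta barcodes had a sequence that was also kept in another library, and no sequence was a delta barcode in 2 libraries. The highest value in any matrix was 4093, just under the 4096 tags that 6 bases allow, so that very abundant hormone RNA is undercounted in the deepest beta barcodes. The highest Sst count in a delta barcode was 3297. The targeted gene fell in the beta cells of both mutant pools but unequally: Atf4 stood at 7.53 and 122 CPM in mutants 1 and 2 and 328 and 354 in controls 1 and 2. Which part of Atf4 was deleted, and whether the counted 3' tags lie in it, is not given in the sources used here.

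Delta barcodes made up 7.84% and 8.52% in mutants 1 and 2 and 6.56% and 5.48% in controls 1 and 2 of all kept ones, as 110, 146, 131 and 103 barcodes in that order. Exact Clopper-Pearson 95% intervals ran from 6.49 to 9.37% in mutant 1, 7.24 to 9.94% in mutant 2, 5.51 to 7.74% in control 1 and 4.49 to 6.602% in control 2, and cover counting error only. Both mutant shares lay above both control shares. The means were 8.18% ± 0.479 (SD, n = 2) and 6.02% ± 0.767 (SD, n = 2), with an exact two-sided permutation p of 0.33, the smallest that 2 pools against 2 can give. A share among captured barcodes moves with how many beta cells were captured as well as with the number of delta cells.

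Somatostatin RNA was a large part of each delta sum. The median share of UMIs on Sst per barcode was 16.7% and 16.9% in mutants 1 and 2 and 13.7% and 14.4% in controls 1 and 2, and the highest barcode gave 37.5%. In the summed UMIs, Sst stood at 117932 and 131012 CPM in mutants 1 and 2 and 112735 and 104078 in controls 1 and 2, and the groups did not overlap. Among barcodes with an insulin share under 10%, which are part of these sums, Sst stood at 168479 and 172343 CPM in mutant and 162331 and 155715 CPM in control sums. Since the rule selects on Sst, these values only describe the selected barcodes. The groups did not overlap for 37.4% of all genes tested over all delta barcodes and 35.1% in those under 10% insulin. The 4 other markers given for delta cells, which the rule did not use, were all present in every library. Hhex, the transcription factor that delta cells need, stood at 183 to 228 CPM in delta sums against 2.28 to 5.25 in beta, 0 to 11.4 in alpha and 11.3 to 64.8 in PP sums. Rbp4, the plasma carrier of retinol, stood at 1854 to 2791, Arg1, which cleaves arginine to ornithine and urea, at 350.5 to 469.5, and Dpp6, a partner of Kv4 potassium channels, at 293 to 458 CPM. Each of the 4 was called higher in delta than in beta, alpha and PP cells, as given below. Over all delta barcodes, however, the 8 beta cell markers, which include the insulin genes, summed to more than the 5 delta markers in every library, at 141815 and 145699 against 121046 and 134846 CPM in mutants 1 and 2 and 181325 and 173809 against 115431 and 107855 CPM in controls 1 and 2. Among barcodes with an insulin share under 10% the order was reversed, with 30542 to 36398 CPM for beta and 161368 to 177224 CPM for delta markers. That order follows in part from the selection, since the rule sets Sst and the split limits the insulin genes. Over all delta barcodes of mutant 1, Sst alone gave 117932 of the 121046 CPM of delta markers. On GRCm38 (GENCODE vM21, 1-based) the Sst gene lies on the minus strand at chr16:23889573-23890958 and Hhex on the plus strand at chr19:37434810-37440731. GENCODE starts Sst upstream of the RefSeq start, so that the bases of the window above nearest to the RefSeq start, with the palindrome, lie inside the GENCODE gene.

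The delta barcodes fell into a set with little insulin RNA and a set with much. Counting Ins1 and Ins2 together, 299 of the 490 barcodes had under 2% of their UMIs on insulin, 12 had 5 to 10%, and 146 had 15 to 50%. Split at 10%, 333 barcodes are called insulin-poor here and 157 insulin-rich. The insulin-rich share was 26.4% and 30.1% in mutants 1 and 2 and 35.9% and 35.9% in controls 1 and 2, lower in both mutants (exact two-sided permutation p = 0.33, the smallest possible). Insulin-rich barcodes were deeper, with median UMI counts of 6186 to 7922 over the libraries against 2874 to 4169, and had less Sst, with medians of 6.38 to 7.02% against 17.4 to 20.2% of UMIs. Barcodes with insulin at 10% or more were also 9.47 to 15.7% of alpha, 8.696 to 46.7% of PP and 0 to 26.4% of endothelial barcodes. Whether an insulin-rich delta barcode holds 1 cell or a delta and a beta cell was not tested, and no doublet caller was run.

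**Figure D1:**
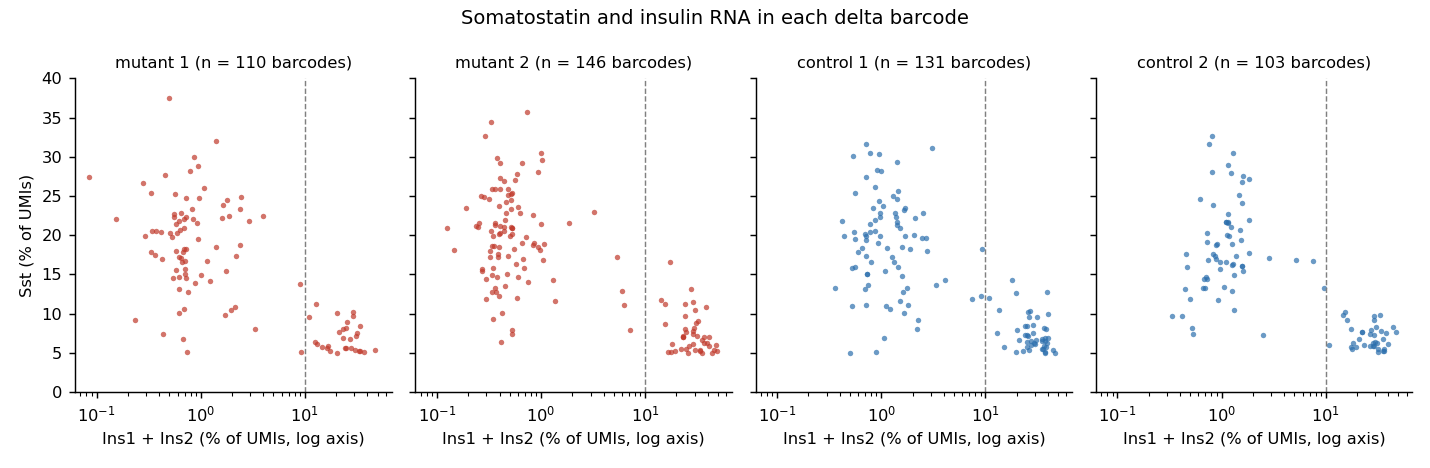
Each point is 1 delta barcode, with the share of its UMIs on Ins1 and Ins2 (log axis) against the share on Sst, in 4 panels for the 4 libraries. The dashed line marks 10%. A cloud at low insulin reaches high Sst shares, and a second cloud at 15 to 50% insulin sits mostly under 15% Sst.

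Just above the 5% Sst limit nearly all barcodes were insulin-rich. Between 5 and 6% Sst there were 57 barcodes, of which 53 held 10% insulin or more. Just outside, between 4 and 5%, 56 of 57 did.

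Insulin-poor barcodes carried some insulin RNA, as did cells that should have none. The median share was 0.704% and 0.457% in mutants 1 and 2 and 1.05% and 1.11% in controls 1 and 2, lower in both mutants than in both controls (exact two-sided permutation p = 0.33, the smallest possible). Both mutants were also deeper here, with medians of 3245 and 4169 UMIs in mutants 1 and 2 and 2957.5 and 2874.5 in controls 1 and 2. The part of depth in the lower share was not tested. Endothelial barcodes with under 10% insulin had medians of 0.895% and 0.6296% in mutants 1 and 2 and 1.87% and 1.13% in controls 1 and 2, at median depths of 1506 to 2413 UMIs against 2874 to 4169 in insulin-poor delta barcodes. The delta medians were no higher than the endothelial ones in any library, but the depths differ, and where this insulin RNA comes from was not tested. The Ins1 share of insulin counts in insulin-poor delta sums, after correction for tags drawn more than once, was 11.5% and 19.5% in mutants 1 and 2 and 26.3% and 29.3% in controls 1 and 2. In beta sums it was 23.7% and 29.3% in mutants 1 and 2 and 34.04% and 34.8% in controls 1 and 2. In endothelial barcodes it was 19.2% and 19.97% in mutants 1 and 2 and 27.1% and 30.1% in controls 1 and 2. It was thus lower in mutants than in controls in each of these, and lowest in the insulin-poor delta cells of mutant 1.

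Islet amyloid polypeptide behaved differently. Iapp encodes the peptide that beta cells release with insulin. Its share of UMIs in insulin-poor delta sums was 1.97% and 2.18% in mutants 1 and 2 and 2.38% and 2.02% in controls 1 and 2, more than that of insulin. There were 1.29 to 2.199 Iapp counts per insulin count in those sums, against 0.0972 to 0.104 in beta and 0.0868 to 0.0975 in endothelial barcodes. The ratios of the insulin-poor delta sums lay above those of both other classes in every library. After thinning every barcode to 1000 UMIs, Iapp was found in all 322 insulin-poor delta barcodes and in 68.9% of 858 alpha barcodes, with 11 and 9 shallower barcodes left out. Without thinning it was found in every insulin-poor delta barcode and in 92.5% of alpha barcodes, at median depths of 2874 to 4169 and 3688 to 4707 UMIs. Median Iapp shares were 1.53 to 2.15% of UMIs in insulin-poor delta and 0.0851 to 0.161% in alpha barcodes. Other beta cell genes did not follow: in insulin-poor delta sums Ucn3, a peptide that beta cells release, stood at 9.91 to 44.9, the glucose transporter gene Slc2a2 at 5.45 to 23.8 and G6pc2, a glucose-6-phosphatase of beta cells, at 7.07 to 34.4 CPM, against 905 to 1218, 664 to 745 and 944 to 1836 CPM in beta sums. Mafa, a beta cell factor, was at 0 in every delta sum and at most 0.342 CPM in beta sums.

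**Figure D2:**
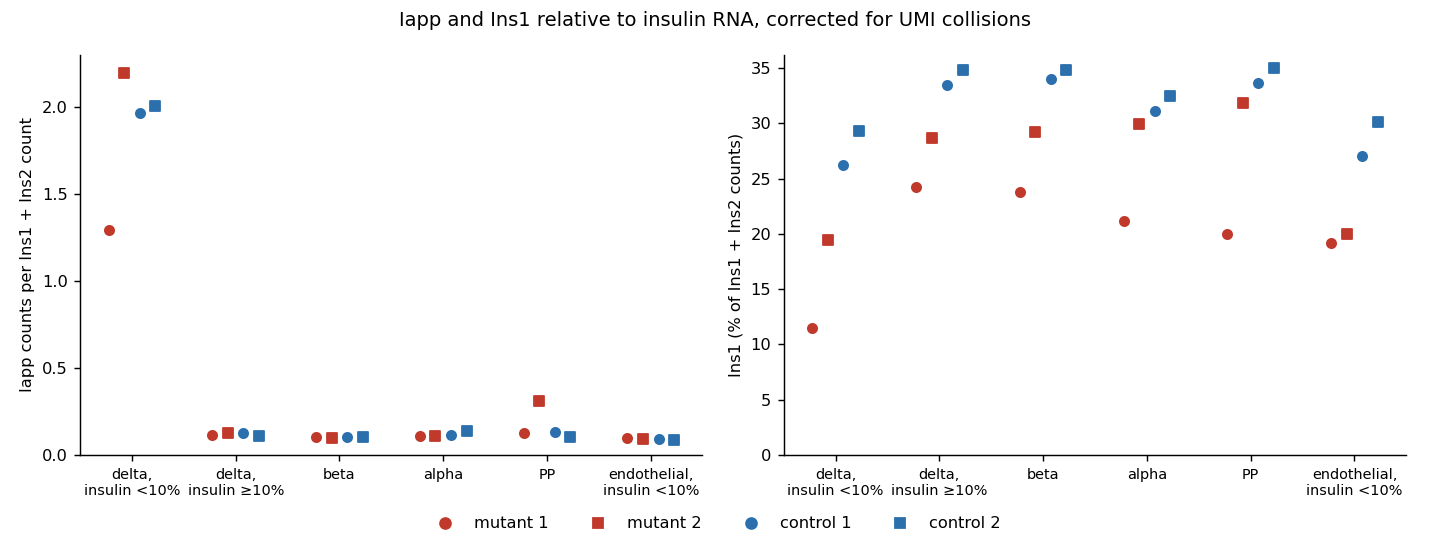
The left panel shows Iapp counts per insulin count and the right panel Ins1 as a share of insulin counts, each point being the sum of 1 class in 1 library after correction for UMI collisions. Insulin-poor delta sums lie at 1.29 to 2.199 Iapp counts per insulin count and beta sums at 0.0972 to 0.104, and the Ins1 share is lower in both mutants in insulin-poor delta, beta and endothelial sums.

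Delta cells also held RNA of the pancreatic polypeptide family. The share of Pyy, peptide YY, in insulin-poor sums was 3.46% and 3.37% in mutants 1 and 2 and 3.37% and 3.17% in controls 1 and 2. That of Ppy, pancreatic polypeptide, which the rule limits, was 2.02% and 1.41% in mutants 1 and 2 and 1.71% and 2.01% in controls 1 and 2. Pyy counts were 1.58 to 2.39 times the Ppy counts there and 0.702 to 0.843 times in PP sums, whose rule selects on high Ppy. Median Gcg shares, which the rule holds under 10%, were 0.0394 to 0.0642% of UMIs over all delta barcodes, 0.0365 to 0.0594% in insulin-poor and 0.0325 to 1.93% in insulin-rich ones, and 72 of 490 barcodes had 2% or more.

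Beyond the hormones, delta cells differed from each other endocrine class at many genes. Sums per library and class were compared in 1 edgeR quasi-likelihood fit with the library as a block and Benjamini-Hochberg adjustment over all genes, leaving the hormones and mt- genes that define the classes out of the counts. Against beta cells 1620 genes were higher and 1582 lower (32.5% of 9853 genes). With library totals as the only scaling the split was 3273 higher and 689 lower, and the median log2 difference of all genes moved to 0.26 from -0.01. Against alpha cells 1118 genes were higher and 1198 lower (23.5%), and with hormone genes taken out of the totals 1583 and 822. Against PP cells 450 were higher (4.57%) and 408 lower (4.14%), 8.71% together, and 507 in all were called without control 1 and 570 without mutant 1. 180 genes were higher in delta cells than in all 3 other classes (1.83%) and 51 lower (0.518%). Among insulin-poor delta barcodes alone these counts were 264 and 119.

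Of the 180 genes, 92 reached 5 or more on the log2 CPM scale on average and were ranked by their difference from the nearest class. First among these 92 was Cd24a, which encodes a small glycoprotein of the cell surface. Cd24a stood at 347 to 445 CPM in delta sums and 9.102 to 17.4, 9.31 to 15.2 and 20.99 to 70.2 in beta, alpha and PP sums, with log2 differences of 4.73, 5.05 and 3.25 (largest adjusted p = 8.0e-14). No delta sum overlapped a sum of another class. Hhex came next among them, with log2 differences from beta, alpha and PP sums of 5.60, 4.91 and 2.95, and then Dpp6 with 4.56, 3.54 and 2.90 (largest adjusted p = 1.1e-09 and 8.9e-15). Dscam, an adhesion molecule of neurons, stood at 107 to 221 CPM in delta sums and at most 37.8 in any other. Fam159b stood at 394 to 524 in delta sums and at most 157 elsewhere. Arg1 had log2 differences of 4.99, 2.18 and 3.08 and Rbp4 of 4.53, 1.55 and 2.11, both smaller against alpha than against beta cells. Genes of vesicle release and its control followed: the calcium sensor Syt1 with 4.05, 2.16 and 2.88, Stxbp5l, a tomosyn that binds syntaxin, with 2.78, 1.68 and 2.00, and the vesicle GTPase Rab3b with 1.17, 2.59 and 1.48. Among genes of excitability the acid-sensing channel Asic2 had 3.88, 1.63 and 2.40 and the sodium channel Scn9a 1.41, 1.55 and 1.14. Signalling genes were Rgs9, which speeds the switching off of G proteins, with 1.63, 1.92 and 2.02, the diacylglycerol kinase Dgkb with 3.57, 1.56 and 1.49, the calcium binding Ncald with 1.24, 1.34 and 1.27 and the kinase Stk39 with 1.88, 1.29 and 1.66. The axon guidance genes Efna5, an ephrin, and Unc5c, a netrin receptor, had 1.75, 1.34 and 1.74 and 2.99, 1.26 and 1.63. The other genes by the same rule were Kctd8, Lima1, Car8, Gatm, Rnaset2a and Trp53i11, with smallest differences between 1.02 and 1.23.

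**Figure D3:**
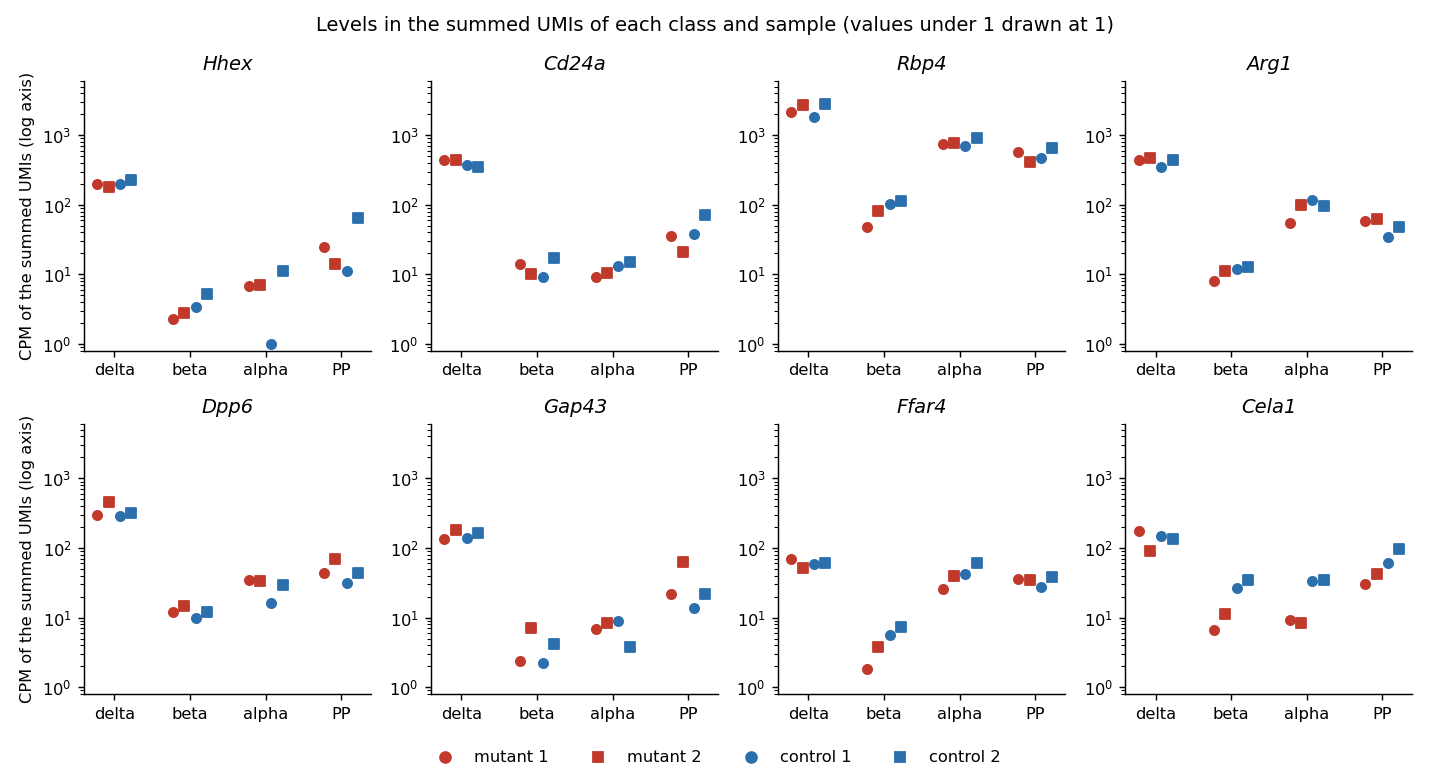
Points show CPM (log axis) of 8 genes in the summed barcodes of each class, 1 point per library, with values under 1 drawn at 1. Hhex and Cd24a separate delta sums from every other class, while Ffar4 overlaps alpha sums.

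Cela1, a pancreatic elastase otherwise known from acinar cells, was also on the list. Cela1 stood at 89.5 to 176 CPM in delta sums and 6.73 to 34.1, 8.45 to 35.04 and 30.3 to 97.1 in beta, alpha and PP sums, and its log2 differences were 2.64, 2.75 and 1.39 (largest adjusted p = 0.0051). It was not called when control 1 was left out, with a smallest difference of 1.34, adjusted p = 0.067. Ctrb1, a chymotrypsinogen of acinar cells, stood at 9.47 to 69.4 CPM in delta and 7.99 to 65.8 CPM in beta sums.

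Genes lower in delta cells than in all 3 classes were led by Ell2, a transcription elongation factor, at 28.8 to 44.7 CPM in delta sums against 51.5 to 73.3 in beta, 98.8 to 113 in alpha and 126 to 154 in PP sums. Prkd1, a protein kinase, had log2 differences of -1.33, -2.19 and -0.95, and Cadps, which primes dense core vesicles for release, of -1.03, -1.63 and -0.86. These genes were chosen for their rank after the values were seen.

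Of 23 tested genes of neural adhesion and axon growth, 15 were higher and 6 lower in delta than in beta cells, 13 and 3 than in alpha and 12 and 3 than in PP cells, with median log2 differences of 0.99, 0.90 and 0.62 beside -0.01, -0.03 and 0.01 over all genes. 9 members were higher in all 3 comparisons and 1, Robo2, was lower, beside 1.83% and 0.518% of all genes. Gap43, a growth cone protein, stood at 137 to 181 CPM in delta and 2.23 to 7.09 in beta sums, with log2 differences of 5.06, 4.45 and 2.54 (largest adjusted p = 1.6e-08). Ptprz1, a receptor phosphatase of the nervous system, had 5.12, 4.63 and 4.21, a larger smallest difference than any ranked gene but at a level under that floor, and Fgf14, which binds sodium channels, 3.91, 0.99 and 1.51. Markers of Schwann cells had 4 of 4 members with counts in delta sums and summed to 21.7 to 47.1 CPM there and 15.99 to 36.9 in alpha sums.

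Of 23 tested islet transcription factors, 9 were higher and 5 lower than in beta cells, 12 and 6 than in alpha cells and 9 and 3 than in PP cells. Over all genes 16.4% were higher and 16.1% lower than in beta cells, 11.3% and 12.2% than in alpha and 4.57% and 4.14% than in PP cells, and the counts of the lists below are to be read beside these shares. Etv1 was higher than in beta cells (log2 difference 3.41) and lower than in alpha and PP cells (-0.78 and -0.90). Pdx1, which both beta and delta cells use, was lower than in beta cells (-0.76) and higher than in alpha and PP cells (2.51 and 1.43). Isl1, a factor of all islet endocrine cells, was higher than in each of the 3 (0.93, 0.48 and 0.55). Nkx6-1, a beta cell factor, stood at 21.2 to 39.6 CPM in insulin-poor delta and 253 to 324 in beta sums.

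Among receptors linked to somatostatin release, 14 of 31 listed genes passed the low-count filter, 7 of them higher and 6 lower than in beta cells, 3 and 3 than in alpha and 3 and 2 than in PP cells. Ffar4, a receptor for long-chain fatty acids, stood at 51.3 to 69.03 CPM in delta and 1.83 to 7.31 in beta sums (log2 difference 3.44, adjusted p = 2.8e-15), and did not pass against alpha (0.50, adjusted p = 0.089) or PP cells (0.81, adjusted p = 0.12). Gria2, an AMPA glutamate receptor subunit, was higher than in beta cells by 2.69 and lower than in alpha cells (-1.48). Ghsr, the ghrelin receptor, was too low to test, at 2.400 to 16.2 CPM in delta sums, and at most 0.846 in the other classes. Crhr2, a receptor for the urocortins, was at 4.06 to 9.05, and Glp1r, the incretin receptor, at 0 to 3.02. Ffar1 and the muscarinic receptor Chrm3 were lower than in beta cells (-1.68 and -1.35). Of 24 tested ion channel genes 8 were higher and 6 lower than in beta cells, 6 and 10 than in alpha and 6 and 1 than in PP cells. The calcium release channel Itpr1 was higher by 2.37 and the background potassium channel Kcnk3 by 2.94 on the log2 scale, but both were lower than in alpha cells (-0.59 and -1.53). The cation channel Trpm5 stood at 0 to 9.91 CPM in insulin-poor delta and 183 to 345 in beta sums.

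All but 2 of the 24 chaperone and folding genes of the endoplasmic reticulum were lower than in beta cells (22 lower, 0 higher, median log2 difference -0.73 beside -0.01 over all genes), while 12 were higher and 0 lower than in alpha cells. Hspa5, the main chaperone of that compartment, had a log2 difference of -0.73 from beta and 0.10 from alpha cells (adjusted p = 1.0e-07 and 0.51). Ero1lb, an oxidase that serves disulfide formation in proinsulin, stood at 62.7 to 108 CPM in insulin-poor delta and 1378 to 2127 in beta sums. Of 30 genes of prohormone processing and granules 7 were higher and 15 lower than in beta cells. The granule zinc transporter Slc30a8 and the prohormone convertase Pcsk1 were lower (-1.84 and -1.47), and the convertase Pcsk2 had a log2 difference of 0.02 (adjusted p = 0.92). Of 22 immediate early genes, which switch on quickly after a stimulus and also during tissue handling, 17 were lower than in alpha and 17 lower than in PP cells, while 9 were higher and 3 lower than in beta cells. Among 12 heat shock genes 5 were higher and 1 lower than in beta cells, led by Hspb1 at 180.0 to 272 CPM against 7.94 to 19.7. Beside the 16.4% of all genes higher and 16.1% lower than in beta cells, of 14 genes of glucose handling 3 were higher and 5 lower, of 11 peptides and local signals 5 and 3, and of 9 interferon and antigen presentation genes 2 and 0. Of 28 tested Atf4 targets 2 were higher and 16 lower than in beta cells, 2 and 7 than in alpha and 1 and 4 than in PP cells. Of 14 p53 targets 2 were higher and 8 lower than in beta cells, 1 and 2 than in alpha and 0 and 3 than in PP cells. The comparison with beta cells covers mutants and controls together, and the insulin-rich barcodes are in it.

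Mutant and control delta cells differed at few genes. Over all 490 barcodes, 8 genes were higher and 13 lower in the mutants (0.0929% and 0.151% of 8613 genes; edgeR quasi-likelihood test on sums per library, Benjamini-Hochberg adjustment). Among the 333 insulin-poor barcodes, 0 genes passed (0.0% of 6050), with 343 at an unadjusted p under 0.05. A robust version of the same test passed 1. The insulin-poor sums hold 302694 to 566074 UMIs against 738808 to 994579 for all delta barcodes. Among insulin-rich barcodes, with 371754 to 461460.0 UMIs, 8 genes were higher and 5 lower (0.131% and 0.0818% of 6109). Leaving out 1 library leaves a lone library in its group, which is then assumed to vary like the others. Over all delta barcodes each gene in those fits took the spread common to genes of its level. In insulin-poor barcodes this held only for the fit without mutant 1. The counts of these fits therefore cannot be compared with each other or with those above. 

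Atf4, the stress-response transcription factor that was targeted, was lower in mutant than in control sums of all delta barcodes. Over all delta barcodes it stood at 141 and 138 CPM in mutants 1 and 2 and 240.0 and 246 in controls 1 and 2 (log2 change -0.86, SE 0.16, adjusted p = 0.019). The groups did not overlap. Insulin-rich barcodes held 83.4 and 131 CPM in mutant and 237 and 271 CPM in control sums (log2 change -1.28, SE 0.24, adjusted p = 0.029). In insulin-poor barcodes it stood at 199 and 143 CPM in mutant and 243 and 208 CPM in control sums (log2 change -0.45, SE 0.21, adjusted p = 0.85, unadjusted p = 0.050), a smaller change whose difference from that in insulin-rich barcodes was not tested. Over all delta barcodes the call was lost without mutant 1 (log2 change -0.85, adjusted p = 0.16) and without mutant 2 (-0.88, adjusted p = 0.12). The Atf4 gene lies at chr15:80255184-80257541 on the plus strand (GRCm38). Alpha cells gave 227 and 262 CPM in mutant and 387 and 329.6 CPM in control sums. Of 20 tested genes that Atf4 is known to activate, 1 was lower and 0 higher over all delta barcodes, where 0.151% of all genes were lower (median log2 change -0.23 beside 0.00 for all genes; 4 lower and 0 higher at an unadjusted p under 0.05), and none of 14 passed in insulin-poor barcodes (edgeR; 0 lower and 0 higher at an unadjusted p under 0.05, median 0.00). The one that passed was Atf5, a related factor, at 37.9 and 69.4 CPM in mutant and 104 and 149 CPM in control sums (log2 change -1.25, SE 0.25, adjusted p = 0.03), though not without mutant 1 (-0.89, adjusted p = 0.16). In insulin-poor barcodes Atf5 stood at 40.9 and 40.6 CPM in mutant and 42.3 and 36.3 CPM in control sums, with a log2 change of 0.02.

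The largest rise was in Cdkn1a, which encodes the cell cycle inhibitor p21 and is a target of p53. It stood at 168 and 103 CPM in mutants 1 and 2 and 6.001 and 22.2 in controls 1 and 2 over all delta barcodes (log2 change 3.20, SE 0.36, adjusted p = 7.5e-05). The insulin-rich barcodes held 293 and 203 CPM in mutant and 4.397 and 23.8 CPM in control sums, and the insulin-poor ones 40.9 and 26.5 CPM in mutant and 7.93 and 19.8 CPM in control sums, too few counts for the filter of that fit. One barcode gave 40.3% of the Cdkn1a counts of mutant 1. Beta cells gave 480.2 and 269 CPM in mutant and 14.3 and 25.1 CPM in control sums. If each delta sum carried RNA of the beta cells of its own library in proportion to its insulin RNA, Cdkn1a would stand at 168, 86.6, 5.63 and 10.01 CPM in mutants 1 and 2 and controls 1 and 2. Measured levels were 0.998, 1.18, 1.07 and 2.22 times these values, and in insulin-poor barcodes 1.93 and 3.63 times in mutants 1 and 2 and 16.6 and 27.5 times in controls 1 and 2. The insulin counts behind these values were not corrected for tags drawn more than once. Undercounting was larger in beta than in insulin-poor delta sums. The values computed for insulin-poor barcodes are therefore too high, and the multiples given for them too low. Whether RNA of beta cells was carried was not tested. Ccng1, cyclin G1 and another p53 target, stood at 111 and 81.4 CPM in mutant and 37.2 and 34.02 CPM in control sums over all delta barcodes (log2 change 1.35, SE 0.25, adjusted p = 0.017), at 148 and 142 CPM in mutant and 32.98 and 28.2 CPM in control sums in insulin-rich and at 73.6 and 35.3 CPM in mutant and 42.3 and 42.9 CPM in control sums in insulin-poor barcodes (log2 change 0.26, SE 0.41), where the groups overlapped. Without mutant 1 the Ccng1 call was lost (log2 change 1.16, adjusted p = 0.1). Of 13 tested p53 targets 2 were higher, Cdkn1a and Ccng1, and 0 lower over all delta barcodes. There 0.0929% of all genes were higher and 0.151% lower. In insulin-poor barcodes 0 of 9 were higher, and 0 of all genes passed. Cldn11, a tight junction claudin, rose over all barcodes (log2 change 1.49, SE 0.29, adjusted p = 0.022), a call lost without mutant 2 (1.33, adjusted p = 0.09), and stood at 72.6 and 88.7 CPM in mutant and 10.99 and 6.501 CPM in control sums in insulin-rich and 51.8 and 60.1 CPM in mutant and 42.3 and 42.9 CPM in control sums in insulin-poor barcodes. Pdyn, which encodes prodynorphin, rose as well (log2 change 1.43, SE 0.21, adjusted p = 0.0017), with 79.01 and 58.3 CPM in mutant and 13.2 and 66.1 CPM in control sums in insulin-poor barcodes, where the groups overlapped, and 43.1% of the counts of mutant 2 in 1 barcode.

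Pde10a, Stk32a and Kcnip1 were higher in both mutants than in both controls whatever the insulin content. Pde10a, a phosphodiesterase that breaks down cyclic nucleotides, stood at 359 and 294 CPM in mutants 1 and 2 and 138 and 123 in controls 1 and 2 over all delta barcodes (log2 change 1.25, SE 0.17, adjusted p = 0.00072). In insulin-poor barcodes it stood at 368 and 276 CPM in mutant and 137 and 149 CPM in control sums, with a log2 change of 1.14 (SE 0.21, adjusted p = 0.16), and in insulin-rich ones at 349.7 and 317 CPM in mutant and 139 and 106 CPM in control sums. By the same proportion to insulin RNA, the beta level of Pde10a would give 84.5 and 60.9 CPM in mutants 1 and 2 over all delta barcodes, 157 and 135 CPM in insulin-rich and 10.7 and 5.13 CPM in insulin-poor ones. Stk32a, a protein kinase, stood at 302 and 322 CPM in mutant and 169 and 159.7 CPM in control sums over all barcodes (log2 change 0.87, SE 0.16, adjusted p = 0.017) and at 346 and 415 CPM in mutant and 206 and 241 CPM in control sums in insulin-poor ones (log2 change 0.76, adjusted p = 0.57). Kcnip1, which binds Kv4 channels as Dpp6 does, stood at 263 and 261 CPM in mutant and 139 and 140.0 CPM in control sums (log2 change 0.85, SE 0.16, adjusted p = 0.021) and in insulin-poor barcodes at 264 and 270.3 CPM in mutant and 169 and 178 CPM in control sums (log2 change 0.61, adjusted p = 0.84). Without mutant 2 the calls of Stk32a (log2 change 0.78, adjusted p = 0.17) and Kcnip1 (0.82, adjusted p = 0.079) were lost. Both mutants lay on 1 side of both controls for 37.4% of all genes tested over all delta barcodes and 35.1% in insulin-poor ones, so the lack of overlap alone says little. Beta cells gave 241 and 189 CPM in mutant and 62.97 and 56.97 CPM in control sums for Pde10a. The other gene that rose was Gm44905, a predicted gene (log2 change 1.62, SE 0.33, adjusted p = 0.028), lost without mutant 2 (0.98, adjusted p = 0.52) and with 28.8% of its counts in mutant 2 from 1 barcode. In insulin-poor barcodes it stood at 62.7 and 131 CPM in mutant and 37.00 and 42.9 CPM in control sums (adjusted p = 0.76).

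Among the 13 genes that fell, several encode digestive enzymes. Ctrb1 stood at 9.47 and 14.1 CPM in mutant and 55.2 and 69.4 CPM in control sums (log2 change -2.40, SE 0.33, adjusted p = 0.00072), and Amy2a5, a pancreatic amylase, at 27.1 and 10.1 CPM in mutant and 88.8 and 65.4 CPM in control sums (log2 change -2.19, SE 0.34, adjusted p = 0.0032). The trypsinogen Prss2 (log2 change -2.86, SE 0.56, adjusted p = 0.023) and Try4 (log2 change -2.46, SE 0.52, adjusted p = 0.04) fell too, as did 2210010C04Rik (log2 change -2.28, SE 0.42, adjusted p = 0.016). In insulin-poor barcodes both mutants also lay under both controls for each of these 5 genes, and none passed, with Ctrb1 at 10.9 and 19.4 CPM in mutant and 71.4 and 62.8 CPM in control sums (adjusted p = 0.2) and Amy2a5 at 40.9 and 12.4 CPM in mutant and 106 and 89.2 CPM in control sums (adjusted p = 0.22), while Prss2 was too low to test. Those barcodes are part of the sums in which the 5 genes were chosen, so this is no separate support. Of all genes tested in them, 35.1% showed no overlap between groups, in either direction. The 7 acinar markers together stood at 229 and 122 CPM in mutant and 334 and 335 in control delta sums, and at 45.3, 59.4, 167 and 232 in beta sums. In alpha sums they stood at 57.5 and 72.1 CPM in mutant and 262 and 247 CPM in control libraries. In PP sums the values were 57.9 and 105 CPM in mutant and 188 and 281 CPM in control libraries. Cela1, which was higher in delta cells, is 1 of the 7. It gave 176 and 89.5 CPM of these in mutant and 149 and 135 CPM in control delta sums. In beta sums Cela1 gave 6.73 and 11.2 CPM in mutants and 26.5 and 34.1 CPM in controls. All 7 had counts, and their part in these falls was not tested. Lpl, lipoprotein lipase, stood at 102 and 92.5 CPM in mutant and 187 and 192 CPM in control sums (log2 change -1.03, SE 0.18, adjusted p = 0.0074) and in insulin-poor barcodes at 62.7 and 77.7 CPM in mutant and 135 and 149 CPM in control sums (log2 change -1.001, adjusted p = 0.57). Gstm1, a glutathione transferase, fell (log2 change -1.11, SE 0.20, adjusted p = 0.014), and so did the predicted gene Gm17660 (log2 change -1.75, SE 0.30, adjusted p = 0.0074). In insulin-poor barcodes Gstm1 stood at 68.1 and 68.9 CPM in mutant and 127 and 99.1 CPM in control sums (adjusted p = 0.84) and Gm17660 at 54.5 and 22.97 CPM in mutant and 124 and 112 CPM in control sums (adjusted p = 0.2). Ins1, the gene that drives Cre in the mutants, was lower (log2 change -0.70, SE 0.13, adjusted p = 0.016), and in insulin-poor barcodes stood at 1825 and 1954 CPM in mutant and 3285 and 3023 CPM in control sums (adjusted p = 0.16). The insulin-poor set is itself selected on Ins1 plus Ins2, so its Ins1 values are only a description. Dlgap1, a postsynaptic scaffold, fell (log2 change -2.34, SE 0.49, adjusted p = 0.038), but rested on control 1, which held 257 against 41.9 CPM in control 2, and was not called without control 1 (log2 change -0.45, adjusted p = 0.78). Insulin-poor barcodes, where Dlgap1 was not tested, held 8.17 and 14.1 CPM in mutant and 264 and 13.2 CPM in control sums. Npy, neuropeptide Y, also passed but was found in 7 and 2 barcodes of the controls and 0 and 1 of the mutants, with 94.1% of the control 2 counts in 1 barcode. Of 11 tested peptides and local signals 1 rose, Pdyn, and 1 fell, Npy, beside 0.0929% of all genes higher and 0.151% lower. Cdkn1a, Pdyn, Pde10a, Ctrb1, Amy2a5, Gm17660, Gstm1, Lpl and Ins1 were called whichever library was left out. Those fits passed more genes than the fit of all libraries. In them a gene's own spread between libraries did not count, so a call there says little on stability. None of these genes passed with Sst at 10% or more or with insulin under 10%.

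**Figure D4:**
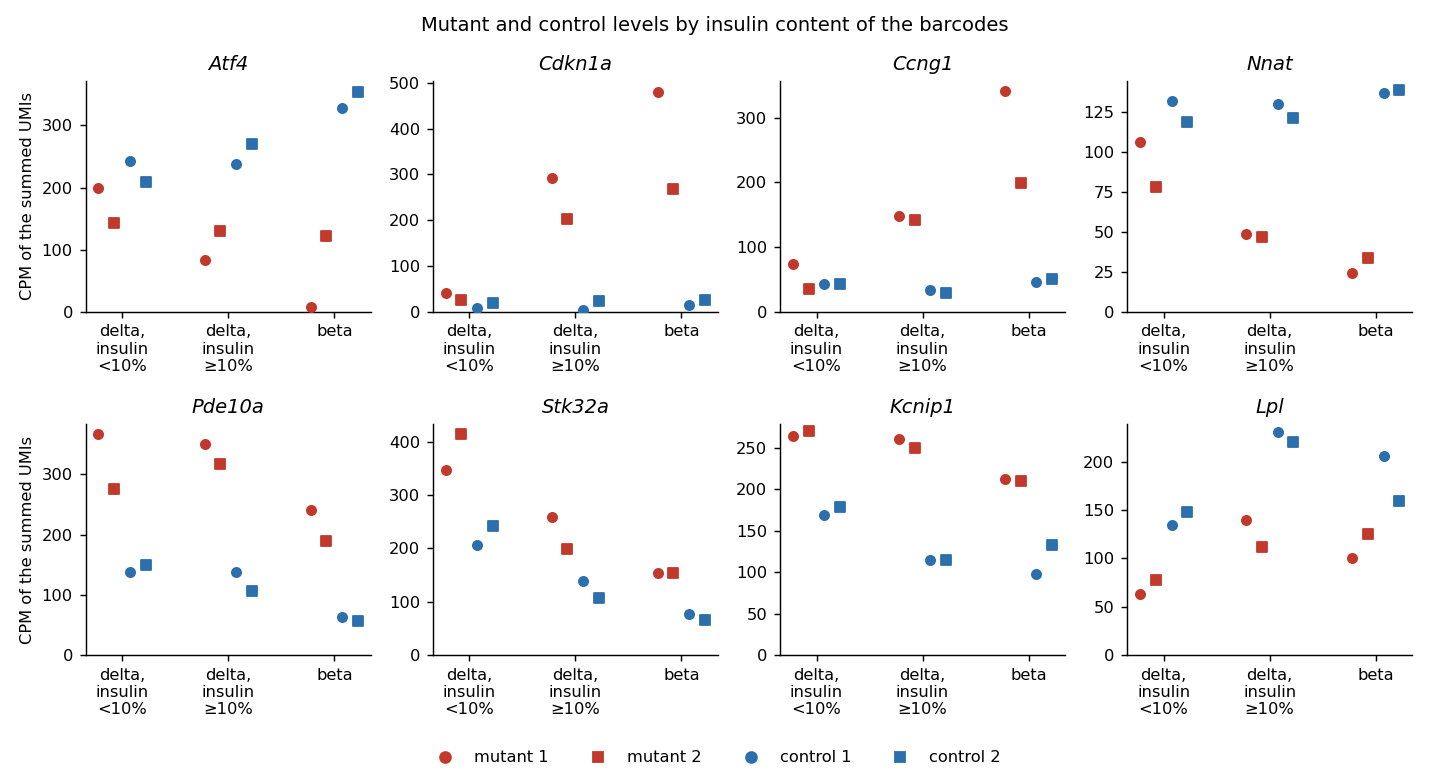
Points show CPM of 8 genes in insulin-poor delta, insulin-rich delta and beta sums, 1 point per library. Cdkn1a and Ccng1 are high in the mutants where insulin RNA is high, while Pde10a, Stk32a and Kcnip1 are higher in both mutants in all 3 sets.

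**Figure D5:**
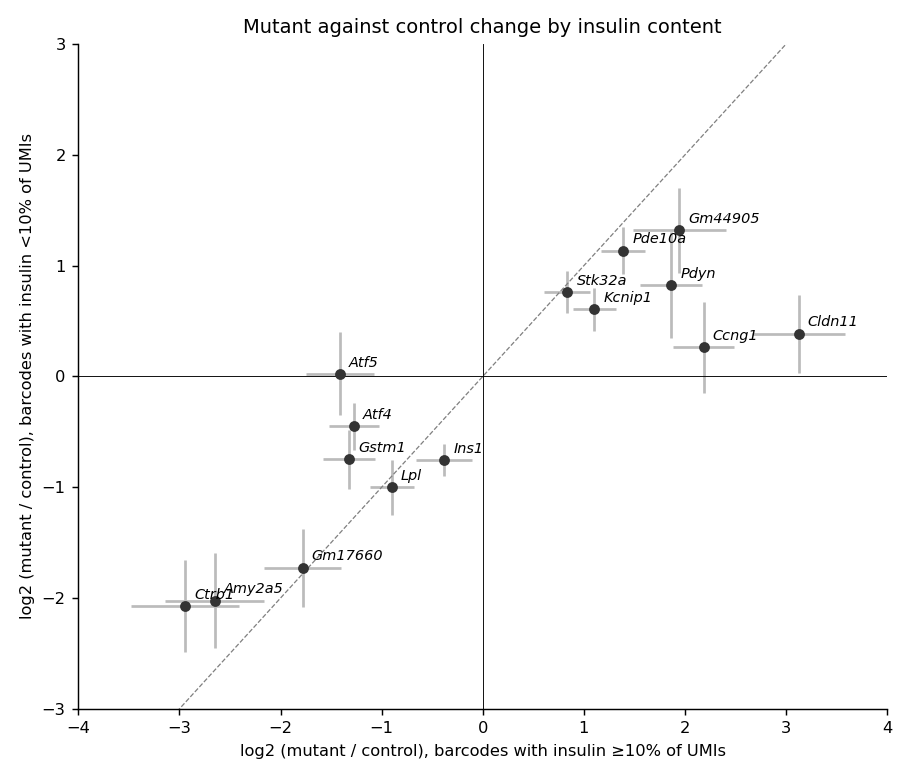
Each point is 1 of the 15 named genes tested in both sets, with its log2 change in insulin-rich barcodes against that in insulin-poor ones. Bars are standard errors and the dashed line marks equal change. Ccng1, Cldn11 and Atf5 lie far from the line towards no change in insulin-poor barcodes.

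The lowest p in insulin-poor barcodes belonged to Dlk1, an imprinted Notch-related gene, named here after its value was seen. It stood at 35.4 and 28.3 CPM in mutant and 106 and 149 CPM in control sums (log2 change -2.02, SE 0.32, adjusted p = 0.068), and the groups did not overlap. The robust version of the test gave an adjusted p of 0.034. Over all delta barcodes Dlk1 was seen in 6 and 12 mutant and 13 and 15 control barcodes, with 66.7% of the mutant 1 counts in 1 barcode. Nnat, an imprinted proteolipid gene, stood at 77.2 and 64.3 CPM in mutant and 131 and 120.4 CPM in control sums over all delta barcodes (log2 change -0.90, SE 0.20, adjusted p = 0.075) and at 106 and 77.7 CPM in mutant and 132 and 119 CPM in control sums in insulin-poor ones (unadjusted p = 0.062). Cacna1i, a T-type calcium channel, stood at 40.6 and 16.1 CPM in mutant and 4.801 and 3.93 CPM in control sums (log2 change 2.53, SE 0.58, adjusted p = 0.079), with 53 counts in all. Insulin-rich barcodes held 61.9 and 23.3 CPM in mutant and 2.199 and 2.17 CPM in control sums, and insulin-poor ones 19.1 and 10.6 CPM in mutant and 7.93 and 6.61 CPM in control sums.

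Other gene groups held no gene that passed between mutant and control delta cells by the edgeR test in its reported version. These were the 22 islet transcription factors (median log2 change -0.03), 20 ion channel genes (median log2 change 0.15), 23 neural adhesion and axon genes (median log2 change 0.20), 24 endoplasmic reticulum chaperones (median log2 change 0.08), 12 heat shock proteins (median log2 change 0.08) and 20 immediate early genes (median log2 change -0.28), beside a median of 0.00 over all genes. At an unadjusted p under 0.05, which 597 of 8613 genes reached in either direction, 1, 5, 4, 0, 3 and 1 of them were higher in the same order, and 0, 1, 0, 1, 0 and 5 lower. The lists on receptors, glucose handling, granules and interferon held none either, with 0, 1, 4 and 0 members higher and 0, 0, 3 and 0 lower at that level. DESeq2, run over all genes, called 3 in all. Cacna1d, an L-type calcium channel, stood at 147 and 134 CPM in mutant and 76.6 and 49.6 CPM in control sums of insulin-poor barcodes (log2 change 1.10, adjusted p = 0.57). Hsp90aa1, a heat shock chaperone, had a log2 change of 0.66 over all barcodes (adjusted p = 0.073). In the robust version of the test Hsp90aa1 passed, with an adjusted p of 0.026. Hhex, Rbp4, Arg1 and Dpp6 had log2 changes of -0.22, 0.03, 0.16 and 0.26 over all barcodes, with a smallest adjusted p of 0.8.

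Whether delta and beta cells responded differently was tested as the difference of their mutant effects, with the library as a block. 10 genes had a higher and 18 a lower log2 change in delta than in beta cells (0.0753% and 0.136% of 13276 genes). In data simulated for this comparison the fit called 22 unchanged genes beside 27% of 2-fold and 99% of 4-fold changes, more false calls than the threshold allows, and on the real counts DESeq2 called 0 (143 at an unadjusted p under 0.05). Without mutant 1 the count was 17. The result for Atf4 depended on the version of the test. Its log2 change was higher in delta than in beta cells in the reported fit (difference 1.99, SE 0.33, adjusted p = 5.9e-05), but in the robust version the same difference had an SE of 1.62 and an adjusted p of 0.999, and without mutant 1 it was 0.73, adjusted p = 0.31. The 2 mutant pools were far apart in beta sums, as given above. Nnat fell less in delta than in beta cells (difference 1.47, SE 0.22, adjusted p = 5.8e-06). Beta cells gave 24.1 and 33.7 CPM in mutant and 137 and 139 CPM in control sums, and the call held in the robust version (adjusted p = 4.2e-06). Rbp4 (difference 0.95, SE 0.14, adjusted p = 1.1e-05) and Gpx3, a secreted peroxidase (difference 0.90, SE 0.14, adjusted p = 1.7e-05), also passed. Beta cells gave 47.9 and 82.2 CPM in mutant and 104 and 114 CPM in control sums for Rbp4, each mutant below each control, while delta cells gave 2175 and 2723 CPM in mutant and 1854 and 2791 CPM in control sums, where the groups overlapped. The ribosomal protein genes Rpl3 and Rpl5 and the translation factor Eif4b had differences of 0.62, 0.57 and 0.67. In the opposite direction, Rgs4, a brake on G protein signals (difference -1.45, SE 0.24, adjusted p = 6.3e-05), the vitamin D carrier Gc (difference -1.09, SE 0.19, adjusted p = 0.00018) and Zmat3, a p53 target (difference -1.28, SE 0.28, adjusted p = 0.012), had a lower log2 change in delta than in beta cells. Zmat3 stood at 99.4 and 74.9 CPM in mutant and 27.2 and 30.8 CPM in control sums of beta cells and at 54.1 and 34.2 CPM in mutant and 33.6 and 40.6 CPM in control sums of delta cells, where the groups overlapped. Without control 1 the calls of Gc (-0.87, adjusted p = 0.052) and Zmat3 (-1.33, adjusted p = 0.079) were lost, and without mutant 1 that of Rgs4 (-1.06, adjusted p = 0.052). With insulin-poor barcodes in place of all delta barcodes, Cdkn1a (-2.78, adjusted p = 0.013) and Ccng1 (-2.03, adjusted p = 8.5e-05) had a lower log2 change in delta than in beta cells. Atf5 had a higher one (1.88, adjusted p = 0.00087). The mutant pools were far apart for Atf5 in beta sums, at 37.0 and 257 CPM in mutant and 468 and 558 CPM in control sums. In that fit each gene took the spread common to genes of its level, so its own spread between libraries did not count. Over all delta barcodes Cdkn1a did not pass (difference -0.88, SE 0.36, adjusted p = 0.69).

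Some calls of this comparison rested on 1 barcode or 1 library. The globins Hba-a2 and Hbb-bs were found in control 2 delta sums, at 1307 and 1212 CPM, with 99.9% and 100% of those counts in 1 barcode, and at 0 in the other 3 delta sums. All 4 erythroid markers had counts in the delta sums, and they summed to 0 to 1.01 CPM outside control 2. Dlgap1 (difference -1.51, SE 0.25, adjusted p = 5.1e-05) was highest in control 1 in both classes, with 153 and 149 CPM in mutant and 334 and 116 CPM in control sums of beta cells, and the difference was -0.73, adjusted p = 0.86 without that library. Rpl22l1 (difference 0.99, SE 0.19, adjusted p = 0.00088) stood at 145 and 144 CPM in mutant and 219.6 and 66.7 CPM in control sums of delta cells and 56.6 and 60.7 CPM in mutant and 145 and 67.6 CPM in control sums of beta cells, and without control 2 the difference was 0.79, adjusted p = 0.068. Adgrl3, a latrophilin adhesion receptor, and Itm2b, an amyloid-related membrane protein, had differences of -1.69 and -0.59. Endothelial, macrophage and stellate markers, with 7 of 7, 8 of 8 and 6 of 6 members seen, were highest in control 2 delta sums, at 149, 352 and 136 CPM against at most 38.2, 167 and 17.6 elsewhere. Duct markers spanned 169 to 227, and B cell and cycling markers at most 14.4 and 2.62 CPM. Their part in the calls was not tested.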

How the data were processed

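Islet cells were profiled by inDrops with TruDrop libraries on a NovaSeq sequencer, per the labels' protocols. The authors deposited 1 matrix of UMI counts per gene and barcode for each of the 4 libraries. The submitters' processing notes name mm10 and Seurat, and the aligner and counter are not given in the sources used here. Barcodes were classed by the limits in the report. Beta barcodes had Ins1 plus Ins2 at 20% of UMIs or more with Sst, Gcg and Ppy each under 5%, alpha barcodes Gcg at 10% or more, Sst under 5% and Ppy below Gcg, and PP barcodes Ppy at 5% or more, Ppy at or above Sst and Gcg under 10%. Endothelial and macrophage barcodes had markers at 0.5% of UMIs or more. For each library and class the counts were summed, and edgeR 4.0.16 in R 4.3.3 tested the sums (filterByExpr, TMM, glmQLFit without the robust option, glmQLFTest), with Benjamini-Hochberg adjustment over all genes and a threshold of 0.05. Levels are plain CPM of each sum, log2 changes are after TMM, and SE is the change divided by the root of F. Single values used exact permutation tests over the 4 libraries (scipy 1.17.1). The fits were tested on simulated data. For mutant against control, 62% of 2-fold and 93% of 4-fold changes came back with 4 false calls. For delta against beta cells 97% and 100% came back with 15. In that simulation all classes shared a common profile apart from the changed genes, while 32.5% of real genes were called. It therefore cannot tell recovery or false calls where so many genes differ. Recovery and false calls against alpha and PP cells were not scored. When each gene was given the trended spread in place of its own, false calls were 13 for mutant against control and 6 for delta against beta cells. For the difference of the mutant effect between delta and beta cells they were 8.

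Because the fit of the difference made 22 false calls in simulation, the robust option of glmQLFit was tried after the first results were seen. It made 19 there, and 8 in place of 4 for mutant against control. Both versions were run on the real counts, the version run first is reported, and the calls discussed that end in the other are named. Genes were named by rule: up to 10 largest rises and falls among genes past the threshold with an average log2 CPM from 5 upwards and no overlap between groups, the 25 genes with the largest smallest difference from the other classes, leading list members, and Atf4, Cdkn1a, Ccng1, Cacna1i and Nnat. The members, the 13 gene lists and the rules were chosen with earlier results of these data known. Alternatives were another scaling, DESeq2 1.42.0, limma-voom (3.58.1), no count filter, other cell rules and leaving out each library. The mutants differed from each other, and the controls too, beyond the noise of counting, with chi-square values of 2.11 and 2.68 per degree of freedom over genes. Promoter windows came from RefSeq (GRCm38.p6), the assembly that mm10 names.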

Additional observations from a re-analysis of the deposited data

Results flagged for a closer look

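In a test of the difference itself, 17 named genes were called as having another mutant effect in delta than in beta cells (edgeR quasi-likelihood test, all with an adjusted p under 0.05). In simulated data the same fit made 22 false calls, and of these genes 8 lost the call when mutant 1 was left out and 4 when mutant 2 was, 8 when control 1 was left out and 5 when control 2 was. The log2 change in delta minus that in beta cells was 1.99 for Atf4, 1.64 for Cela1, 1.47 for Nnat, 0.99 for Rpl22l1, 0.95 for Rbp4, 0.90 for Gpx3, 0.67 for Eif4b, 0.62 for Rpl3 and 0.57 for Rpl5. It was -12.81 for Hba-a2, -11.80 for Hbb-bs, -1.69 for Adgrl3, -1.51 for Dlgap1, -1.45 for Rgs4, -1.28 for Zmat3, -1.09 for Gc and -0.59 for Itm2b. The Hba-a2 and Hbb-bs values come from 1 barcode and have no bound, since the other delta sums are at 0. Atf4 and Cela1 did not pass in the robust version of the test, with adjusted p = 0.999 and 0.91, and DESeq2 called none of these genes (143 of all genes at an unadjusted p under 0.05). What lies behind these differences was not tested.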

How the results depend on the processing

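The 21 genes called between mutant and control delta cells became 3 with DESeq2, 68 without the low-count filter, 8 with at least 1000 genes and an mt- share under 10%, 0 with Sst at 10% or more, 0 with insulin under 10% and 13 with insulin at 10% or more, and ranged from 43 (without mutant 1) to 109 (without control 1) when 1 library was left out. With the replicate number as a block there were 52 calls, and with crossed numbers 20. The numbers only name the pools (correlation of the replicate differences 0.0506 across genes). Without the low-count filter, with the uncrossed block and without 1 library, each gene took the spread common to genes of its level. Its own spread between libraries then did not count, so those counts cannot be compared with the 21. In insulin-poor barcodes the count was 0, with 1 under library totals and 1 in the robust version. Of the insulin-poor fits without 1 library only that without mutant 1 took the common spread, so their counts cannot be compared. Atf5 changed sign in insulin-poor barcodes, to a log2 change of 0.0227. The robust version shared 20 of 21 calls over all delta barcodes, losing Dlgap1 and gaining Hsp90aa1. The 28 calls of the difference from beta cells became 0 with DESeq2, 43 with limma-voom, 15 with at least 300 genes and an mt- share under 30%, 7 with insulin-rich barcodes and 17 to 39 without 1 library, lowest without mutant 1 (18 to 50 for insulin-poor barcodes). The robust version shared 23 of them. Genes differing from beta cells fell to 1146, and those higher than in all 3 classes to 70, with insulin-rich barcodes. Calls against PP cells ranged from 507 to 849 without 1 library, lowest without control 1. 23 of 25 genes named as highest in delta cells passed in every alternative, and none of the named mutant or difference genes did. The share of delta barcodes was 2.16 percentage points higher in mutants and stayed higher under 5 other cell rules. Median insulin was lower in mutants under each, by far more with Sst at 2% or more, where the medians were 8.75 and 26.3%. The cause of these changes was not tested. The PP sums, with 23 to 66 barcodes, limit the comparison with PP cells.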
